A study of Mus musculus with 28 samples.

Results

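Nuclear receptors and the transcription factor families that share work with them in the liver were followed in mouse liver RNA during fasting and high-fat feeding. The members are all genes of the array's annotation whose symbols begin with the root of a receptor or factor family (the NR-numbered receptors, Ppar, Rxr, Rar, Thr, Esr, Hnf, Fox, Cebp, Klf, Stat, Gata, Creb, Atf, Srebf, Ncoa and Ncor), leaving out Nr1h4, Nr1i3, Pparg and Ppargc1a. The names gave 72 members among 4799 named genes, in 12 role groups. No Srebf or Ncor gene was among them, and Creb3l1 was the only Creb gene. The rule rests on names, but it was set with earlier results of these data known, and 2 of the genes it leaves out, Nr1h4 and Nr1i3, rose in fasted livers. Each member was measured by 2 spots, whose ratios were averaged. The fasted livers came from mice kept on chow for 2 weeks and then without food for 16 h. The high-fat livers came from mice given a high-fat diet over the same 2 weeks, and the control livers from mice given chow throughout. All 15 mice, 5 in each group, were C57BL/6 and 12 to 16 weeks old. Neither their sex nor the make-up of the diet is stated in the labels.

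Nuclear receptors are transcription factors that many lipids and hormones switch on by binding to them, and most bind DNA in pairs, often with the retinoid X receptor as partner. In the liver they read fatty acids, bile acids, oxysterols, thyroid hormone and glucocorticoids, and adjust fuel use to feeding. C/EBP, forkhead, HNF4 and GATA factors keep hepatocytes in their differentiated state, whereas CREB, ATF, STAT and KLF factors pass on glucagon, stress, cytokine and hormone signals. Much of this control acts on the proteins, which an RNA measurement does not see.

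RNA from 2 livers at a time was labelled with 2 dyes and hybridised together, so each value is a ratio between a pair of mice and holds no level of its own. There were 4 fasted and control pairs, 5 high-fat and control pairs and 5 fasted and high-fat pairs. Each was hybridised on 2 arrays that name the livers in opposite order, which made 28 arrays. The design describes the second array as a dye exchange, and it is called so below. If the first dye label belongs to the first-named liver, however, the labels give each liver the same dye on both arrays. Whether the dyes were exchanged was not tested. The ratios were read as the second-named liver of a label over the first-named, on a base 2 logarithm. This direction is likely rather than stated, and reading it the other way would exchange higher and lower throughout. The SD of the ratios over the spots of an array ran between 0.29 and 1.26. The widest array belonged to the pair of fasted mouse 15 and control mouse 2. Before the signs were turned, the 2 arrays of a pair should run against each other, but over all spots their correlation was positive in 9 of 14 pairs. Whether an array had been deposited with its sign already turned was checked on genes with a mean size over 1 in the other pairs with fasted livers, 42 to 58 named genes for each pair. On each of the 18 arrays with a fasted liver, between 89.7% and 100% of these genes lay on the same side as in the other pairs. For the 10 high-fat and control arrays, with a size over 0.5 and 32 to 46 genes, the share was between 73.9% and 86.8%, so no array ran against the others. The 2 arrays of a pair were averaged, and single arrays are described for the members that passed. Because the values are ratios, the level of hepatocyte genes such as albumin could not be used to check the tissue.

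In fasted livers, 4 of the 72 members fell relative to control livers and none rose (limma, adjusted p under 0.05, over 11457 features). The 4 were Nr0b2, which encodes the repressor SHP, Cebpa, a master factor of hepatocyte identity, Klf9, a factor that answers to glucocorticoid and thyroid hormone, and Nr2f6, an orphan receptor. That is 5.56% of the members, close to the background of 5.54% of named genes that fell in the same comparison, where 4.15% rose. With arrays centred on their medians the split was 1 higher and 3 lower, and with arrays scaled to the same spread 1 higher and 2 lower; the member higher there was Ncoa4. At an unadjusted p under 0.05, 5 members were higher and 10 lower, together 20.8%, against 21.3% of all named genes. The median log2 ratio of the members was -0.010, against 0.006 for all named genes, and the typical size of a ratio, without its sign, was 0.08 for members and 0.10 for all named genes. For 63 of the 72 members the 95% interval lay wholly within 0.5 of 0 on the log2 scale, which is 87.5%, against 82.2% of all named genes.

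**Figure D1:**
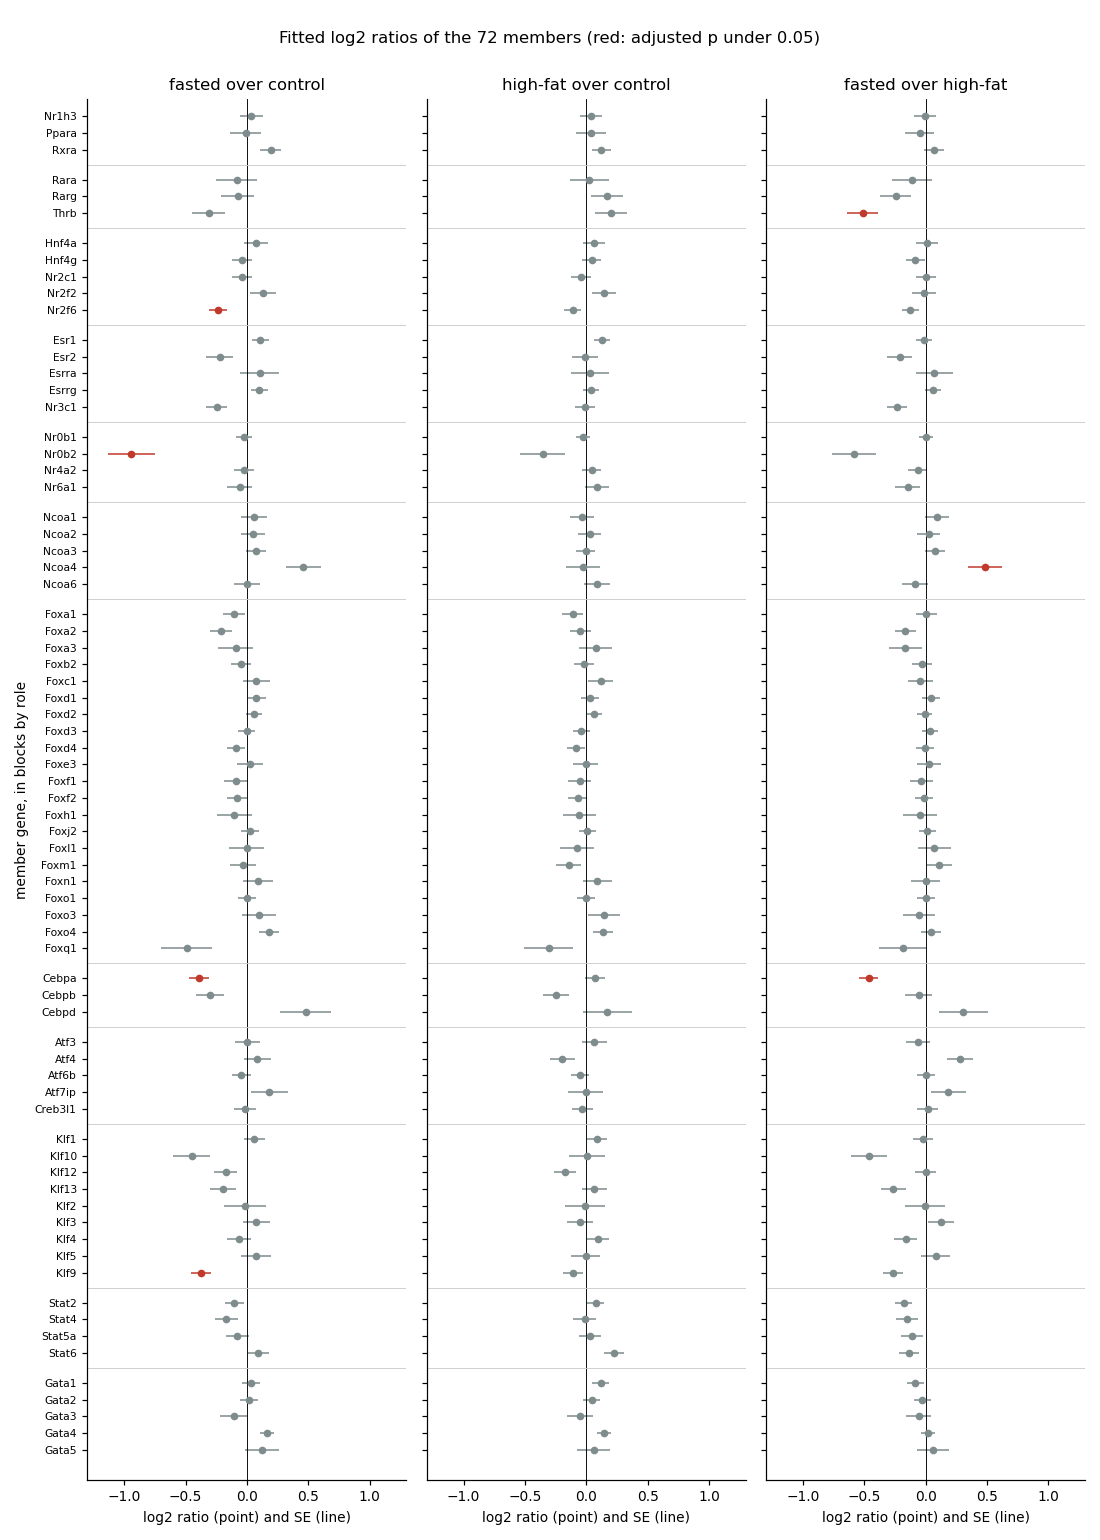
Fitted log2 ratios of the 72 members, fasted over control (left), high-fat over control (middle) and fasted over high-fat (right), in blocks by role. Points are estimates, lines are 1 SE on each side, and red marks an adjusted p under 0.05: Nr0b2, Cebpa, Klf9 and Nr2f6 on the left, none in the middle, and Thrb, Cebpa and Ncoa4 on the right.

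High-fat feeding moved no member past the threshold (limma, 0 of 72, with 3 at an unadjusted p under 0.05). The background was thin in this comparison too, with 0.0625% of named genes higher and 0.271% lower in high-fat than in control livers. The intervals of 69 members lay within 0.5 of 0, which is 95.8%, against 94.2% of all named genes. When fasted livers were set against high-fat livers, Ncoa4 rose and Cebpa and Thrb fell, which is 1.39% and 2.78% of the members, while 3.31% of named genes rose and 3.06% fell.

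**Figure D2:**
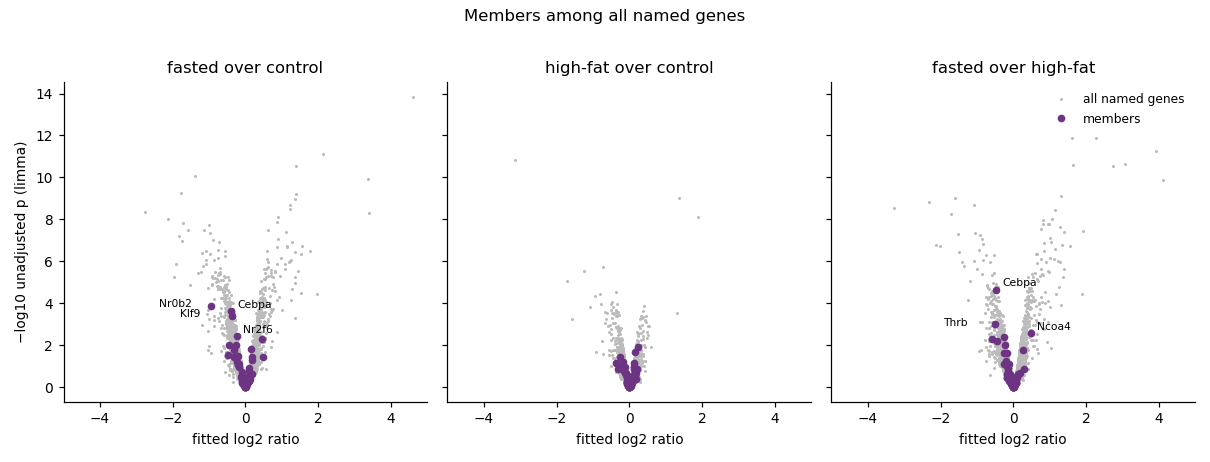
Fitted log2 ratio (horizontal) against the −log10 of the unadjusted p (vertical) for all 4799 named genes (grey) and the 72 members (purple), fasted over control, high-fat over control and fasted over high-fat from left to right. The members named in the plot passed the adjusted threshold; none of the largest changes on the array belonged to a member.

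The 4 genes that fell together in fasted livers have the following 250 bases before their start site in RefSeq (build GRCm38.p6). They are shown because these are the members that moved the same way, with the matches to 7 short motifs in capitals. The stretches are chr4:133553126-133553375 on the plus strand for Nr0b2, chr7:35119043-35119292 on the plus strand for Cebpa, chr19:23140976-23141225 on the plus strand for Klf9 and chr8:71381953-71382202 on the minus strand for Nr2f6, and each reads 5′ to 3′ towards the gene.
Nr0b2: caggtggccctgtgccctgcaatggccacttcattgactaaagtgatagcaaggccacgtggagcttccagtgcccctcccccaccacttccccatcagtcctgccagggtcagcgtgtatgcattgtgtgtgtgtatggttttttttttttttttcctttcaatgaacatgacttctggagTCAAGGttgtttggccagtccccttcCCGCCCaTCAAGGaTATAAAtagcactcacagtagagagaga
Cebpa: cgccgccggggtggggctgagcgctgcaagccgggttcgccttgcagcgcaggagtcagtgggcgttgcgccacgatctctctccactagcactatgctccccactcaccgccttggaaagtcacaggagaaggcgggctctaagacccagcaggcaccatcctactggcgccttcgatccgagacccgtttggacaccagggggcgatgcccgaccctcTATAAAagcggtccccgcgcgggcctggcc
Klf9: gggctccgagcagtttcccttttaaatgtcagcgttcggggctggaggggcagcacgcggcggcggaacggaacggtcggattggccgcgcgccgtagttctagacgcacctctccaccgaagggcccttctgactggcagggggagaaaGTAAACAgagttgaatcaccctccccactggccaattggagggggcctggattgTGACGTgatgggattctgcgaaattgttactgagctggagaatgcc
Nr2f6: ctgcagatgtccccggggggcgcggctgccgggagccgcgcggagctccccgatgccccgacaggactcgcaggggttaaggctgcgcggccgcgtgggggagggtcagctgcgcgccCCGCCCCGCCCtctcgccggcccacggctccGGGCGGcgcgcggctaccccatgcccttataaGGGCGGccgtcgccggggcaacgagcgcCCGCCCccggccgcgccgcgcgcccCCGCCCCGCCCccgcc

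The motifs, searched on both strands in the same 250 bases, were AGGTCA (the hexamer that most nuclear receptors read), TCAAGG (the core of the longer element that NR5A receptors read), TTGCNNAA (C/EBP), TGACGT (the core of the cyclic AMP response element), GTAAACA (forkhead), GGGCGG (the GC box, which KLF and Sp factors bind) and TATAAA. The stretch before Nr0b2 held TCAAGG at 2 places, starting 68 and 35 bases before the start, a GC box, read as CCGCCC, 42 bases before it and a TATAAA match 28 bases before it. TCAAGG was found in 12.5% of 32851 promoters of the same length and TATAAA in 12.4%. The stretch before Cebpa held only TATAAA, 30 bases before the start. Before Klf9 there was a TGACGT 46 bases and a GTAAACA 100 bases before the start, which 6.47% and 3.17% of all promoters hold. The stretch before Nr2f6, 82.4% G and C, held GGGCGG at 7 places, 2 of them overlapping a neighbour, and 32.7% of promoters hold it at least once. No motif was common to all 4 stretches. These matches describe letters and were not tested as binding sites.

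Nr0b2 encodes SHP, a receptor without a DNA-binding domain that represses bile acid synthesis and is itself switched on by the bile acid receptor FXR. Its log2 ratio in the 4 fasted and control pairs was -1.36 for fasted mouse 11 over control mouse 4, -1.14 for fasted 13 over control 5, -1.65 for fasted 14 over control 3 and -1.36 for fasted 15 over control 2. All 4 fasted livers, and all 8 single arrays, were below their control partner. The fit over all pairs gave -0.94 ± 0.19 (SE), or 52.1% of the control value (adjusted p = 0.0041). In the fasted and high-fat pairs the ratios were -0.80 for fasted 11 over high-fat 9, 0.0040 for fasted 12 over high-fat 6, -0.26 for fasted 13 over high-fat 8, 0.04 for fasted 14 over high-fat 7 and -0.30 for fasted 15 over high-fat 10. Only 1 of these 5 pairs came near the size seen against controls, and the fitted -0.58 ± 0.18 missed the threshold (adjusted p = 0.075). The 2 arrays of fasted 13 over high-fat 8 lay on opposite sides of 0, at 0.68 and -1.20. High-fat over control pairs spread between -0.54 and 0.53.

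The pairs of this design form a ring, which allows a check on that size. The same 4 fasted mice and the same 4 control mice can be compared directly or through 4 high-fat mice, and differences between mice cancel between the 2 routes. For Nr0b2 the direct route gave a mean log2 ratio of -1.38 and the route through high-fat livers -0.51. The gap, -0.87, ranked 13 among the 4799 named genes by size, where the median size was 0.12. A test of the gap across all features was added after these values were seen. It fitted the gap over all pairs of the design, not only those that join these mice. Differences between mice therefore need not cancel in it. For Nr0b2 the fitted gap was -1.06 ± 0.23 (SE), rather than -0.87, with an unadjusted p of 0.00036 and an adjusted p of 0.91. No named gene passed this test (limma, 187 at an unadjusted p under 0.05). Both routes put Nr0b2 lower in fasted livers, by amounts that differ. Cebpa gave -0.50 by the direct route and -0.21 by the other, whereas Klf9 gave -0.38 and -0.43. For Ncoa4 the 2 routes gave 0.54 and 0.34, and for Thrb -0.15 and -0.42.

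**Figure D3:**
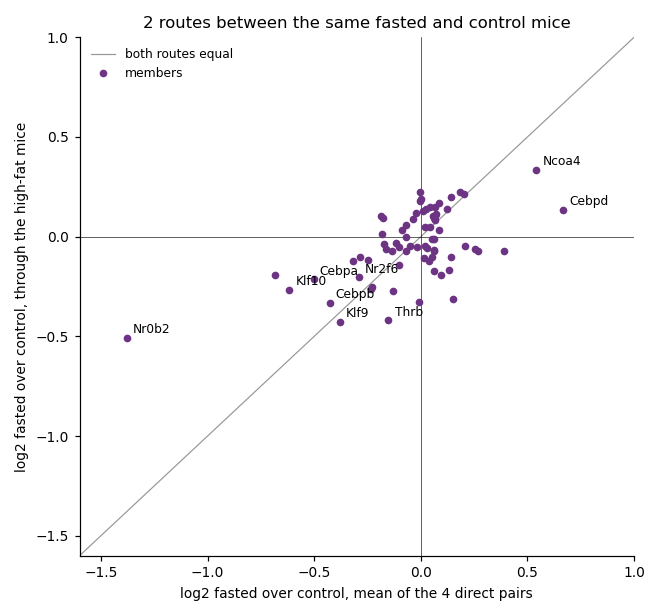
Mean log2 ratio of fasted over control livers for the 72 members, from the 4 direct pairs (horizontal) and through the high-fat mice (vertical), with the line where both routes agree. Nr0b2, at -1.38 and -0.51, lies farthest from the line.

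Nr1h4, which encodes FXR, was left out of the set by rule, as was Nr1i3, which encodes the xenobiotic receptor CAR. In the fasted to control comparison both rose, by log2 0.55 ± 0.09 for Nr1h4 (adjusted p = 0.0011) and 0.75 ± 0.11 for Nr1i3 (adjusted p = 0.00041), higher in 4 of 4 pairs each. Ppargc1a and Pparg did not pass, at 0.25 ± 0.11 and -0.02 ± 0.08.

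The other members of the NR0, NR4 and NR6 families showed fasted to control ratios near 0. Nr0b1, the relative of Nr0b2 known from adrenal and gonad, had -0.02 ± 0.06. Nr4a2, an immediate-early orphan receptor, had -0.02 ± 0.08, and Nr6a1, the germ cell nuclear factor, -0.06 ± 0.10.

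Cebpa was the member lower in fasted livers against both other groups. The ratios were -0.44 (fasted mouse 11 over control 4), -0.45 (13 over 5), -0.58 (14 over 3) and -0.53 (15 over 2). Against high-fat livers they were -0.57 (fasted 11 over high-fat 9), -0.41 (12 over 6), -0.29 (13 over 8), -0.27 (14 over 7) and -0.36 (15 over 10). Every fasted liver of the 9 pairs was below its partner, and so was every one of the 18 single arrays. Fasted mice 11, 13, 14 and 15 served in both comparisons, so the 9 pairs are not independent. The fit gave -0.39 ± 0.08 against controls (76.3%, adjusted p = 0.0061) and -0.46 ± 0.08 against high-fat livers (72.5%, adjusted p = 0.0015). High-fat over control pairs gave 0.17, -0.01, 0.06, 0.08 and 0.49, for high-fat mice 6 to 10 in order. The fitted difference between high-fat and control livers was 0.07, with a 95% interval of -0.10 to 0.24. Both calls held with each of the 15 mice left out, at adjusted p values of at most 0.045 and 0.015. The direct pairs of either comparison fitted alone gave adjusted p = 0.17 against controls and 0.055 against high-fat livers.

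Cebpb, which glucagon and stress signals raise and which drives gluconeogenic genes, did not pass. Its fasted to control ratios were -0.33, -0.60, -0.47 and -0.32 for fasted mice 11, 13, 14 and 15, all below 0, and the fit gave -0.30 ± 0.11 (adjusted p = 0.14). The high-fat to control ratios were 0.53 for high-fat mouse 6 and -0.27, -0.58, -0.37 and -0.13 for mice 7 to 10, so the pair with control mouse 1 stood alone on the high side. Without control mouse 1 the fasted to control value passed, at -0.38 with adjusted p = 0.0055, and without high-fat mouse 6, at -0.40 with adjusted p = 0.0076. Cebpd, the acute-phase member of the family, had 0.48 ± 0.21 in fasted over control livers (adjusted p = 0.21), with an SD of 1.04 over the 4 pairs.

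Among the 9 Kruppel-like factors, Klf9 fell in fasted livers. Its ratios were -0.17 (fasted 11 over control 4), -0.33 (13 over 5), -0.55 (14 over 3) and -0.46 (15 over 2), all below 0. The fit gave -0.37 ± 0.08, or 77.2% of control (adjusted p = 0.0089). Against high-fat livers all 5 pairs were below 0 as well, at -0.18, -0.13, -0.07, -0.41 and -0.53, and the fitted -0.27 ± 0.08 missed the threshold (adjusted p = 0.065). Without fasted mouse 14 the fasted to control call was lost (adjusted p = 0.053). The arrays hybridised first gave a mean of -0.17 and those with exchanged dyes -0.59, and 7 of the 8 single arrays were below 0.

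Klf10, a factor induced by TGF-beta and tied to the liver clock, had fasted to control ratios of -0.67, 0.11, -0.51 and -1.40 for fasted mice 11, 13, 14 and 15. The 4 pairs lay on both sides of 0, and the fit gave -0.45 ± 0.15 (adjusted p = 0.091). Its 5 fasted to high-fat ratios were -0.48, -0.40, -0.28, -0.09 and -0.43, all below 0 and again short of the threshold at -0.46 ± 0.15 (adjusted p = 0.085). Klf12, a repressor of the AP-2 alpha gene, had high-fat to control ratios of -0.16, -0.20, -0.04, -0.44 and -0.21, all below 0, with a fit of -0.17 ± 0.09 (adjusted p = 0.89). Its fasted to control ratios were -0.23, -0.25, -0.39 and 0.35, where the pair of fasted mouse 15 stood on the other side. Klf13, relative of Klf9, had -0.20 ± 0.11 in fasted over control livers and -0.26 ± 0.10 in fasted over high-fat livers (adjusted p = 0.36 and 0.19). The fasted to control ratios of the remaining members were 0.06 for Klf1, the erythroid factor, -0.01 for Klf2, known from endothelium, 0.08 for Klf3, -0.06 for Klf4 and 0.08 for Klf5, with SE between 0.09 and 0.17.

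Hnf4a, the receptor on which much of hepatocyte gene expression rests, had 0.07 ± 0.10 in fasted over control livers and 0.06 ± 0.09 in high-fat over control livers, and the 95% interval of the fasting ratio was -0.13 to 0.27. Its relative Hnf4g had -0.04 ± 0.08. Nr2f6 fell in fasted livers, with ratios of -0.10 (fasted 11 over control 4), -0.41 (13 over 5), -0.46 (14 over 3) and -0.19 (15 over 2), all below 0. The fit gave -0.24 ± 0.07, or 85.0% of control (adjusted p = 0.048). The call held in 3 of 15 fits with a mouse left out, and the arrays hybridised first gave a mean of -0.06 where those with exchanged dyes gave -0.52. Of its 8 single arrays, 7 were below 0. Nr2f2, known as COUP-TFII from vessels and lipid control, had 0.13 ± 0.10, and Nr2c1, an orphan receptor also called TR2, -0.04 ± 0.08.

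Thrb, the main thyroid hormone receptor of the liver, fell in fasted against high-fat livers. The ratios were -0.37 (fasted 11 over high-fat 9), -1.10 (12 over 6), -0.31 (13 over 8), -0.26 (14 over 7) and -1.08 (15 over 10). All 5 fasted livers were lower, and 2 pairs were far lower than the other 3, while 9 of the 10 single arrays were below 0. The fit gave -0.51 ± 0.13, or 70.1% of the high-fat value (adjusted p = 0.024). Against controls the ratios were -0.12, -0.23, 0.07 and -0.33 for fasted mice 11, 13, 14 and 15, and the fitted -0.31 ± 0.13 did not pass (adjusted p = 0.21). High-fat over control livers gave 0.20 ± 0.13, and the call against high-fat livers held in 5 of 15 fits with a mouse left out. Both retinoic acid receptors were below 0 in all 5 fasted to high-fat pairs without passing: Rara had -0.11 ± 0.16 and Rarg -0.24 ± 0.13 (adjusted p = 0.83 and 0.37).

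Among the coactivators, Ncoa1, Ncoa2 and Ncoa3 form the p160 family, to which Ncoa4 and Ncoa6 do not belong. Ncoa4 encodes a cargo receptor that carries ferritin to autophagosomes to release its iron, and it was first described as a coactivator of the androgen receptor. In fasted over high-fat livers its ratios were 0.02 (11 over 9), 0.17 (12 over 6), 0.24 (13 over 8), 0.48 (14 over 7) and 1.17 (15 over 10). All 5 were above 0 with a wide spread, but in 2 pairs the single arrays lay on both sides of 0, at 0.44 and -0.40 for 11 over 9 and at -0.17 and 0.52 for 12 over 6. The fit gave 0.48 ± 0.14, a 1.40-fold value (adjusted p = 0.047). Against controls the ratios were -0.03, 0.47, 0.50 and 1.22 for fasted mice 11, 13, 14 and 15, with a fit of 0.46 ± 0.14 (adjusted p = 0.061). Fasted mouse 15 was the highest in both, and without it the fasted to high-fat value was 0.28 (adjusted p = 0.096). That call held in 3 of 15 fits with a mouse left out, and against controls Ncoa4 passed when arrays were centred on their medians, at 0.47 (adjusted p = 0.028). The members of the p160 family had fasted to control ratios of 0.06 ± 0.10 for Ncoa1, 0.05 ± 0.10 for Ncoa2 and 0.07 ± 0.08 for Ncoa3. Ncoa6, part of a histone methylation complex, had 0.0020 ± 0.11.

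**Figure D4:**
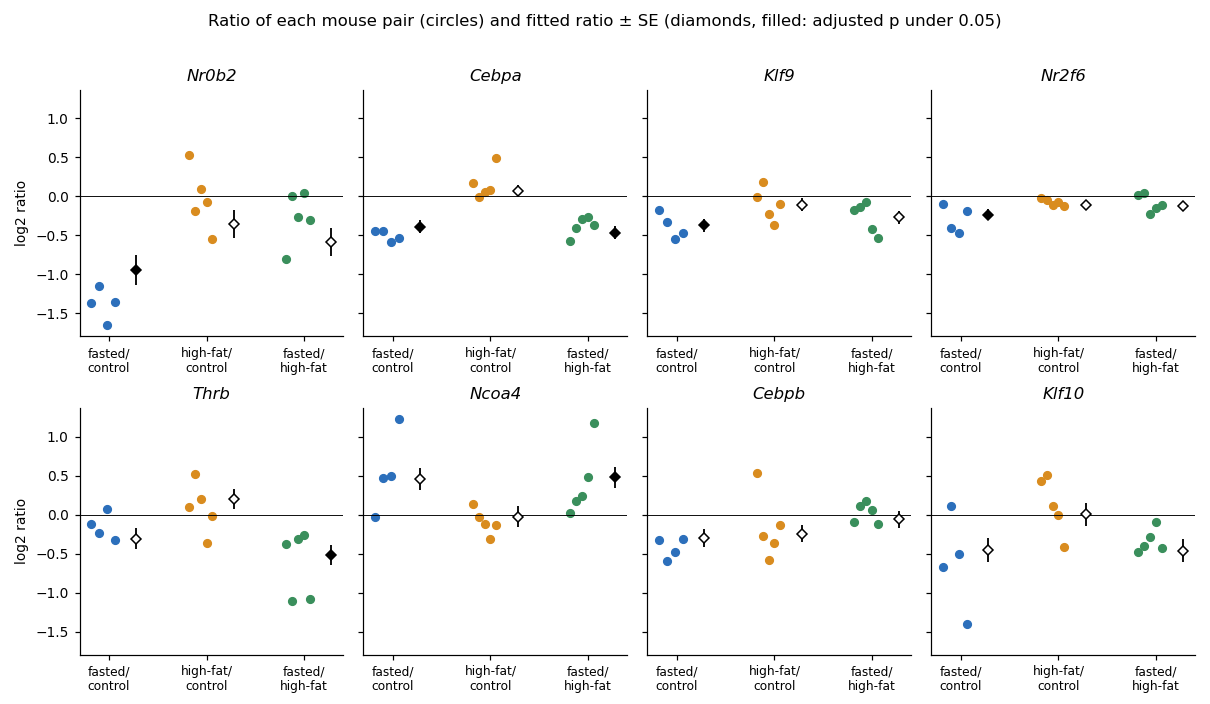
Log2 ratio of each mouse pair (circles) for 8 members, as fasted over control (blue), high-fat over control (orange) and fasted over high-fat (green), with the fitted value ± SE (diamonds, filled where the adjusted p was under 0.05). The Cebpa pairs lie close together and below 0 in both comparisons with fasted livers, and the Nr0b2 pairs lie below -1 only against controls.

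The receptors that read fatty acids and oxysterols had ratios near 0. Ppara, the receptor that switches on fatty acid oxidation during fasting, had -0.01 ± 0.13 in fasted over control livers, with a 95% interval of -0.28 to 0.26. It had 0.04 ± 0.12 in high-fat over control livers. Nr1h3, the oxysterol receptor LXR alpha that promotes lipogenesis, had 0.04 ± 0.09 and 0.04 ± 0.09. Rxra, their shared partner, had 0.19 ± 0.08 in fasted over control livers (adjusted p = 0.21) and 0.12 ± 0.08 in high-fat over control livers, where it was above 0 in 5 of 5 pairs.

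Nr3c1 encodes the glucocorticoid receptor, which carries the hormone signal of fasting into the liver. Its fasted to control ratios were -0.30, -0.35, -0.61 and -0.02 for fasted mice 11, 13, 14 and 15. All 4 were below 0, and the fitted -0.25 ± 0.08 missed the threshold (adjusted p = 0.093). The fasted to high-fat ratios were -0.23, -0.15, -0.33, -0.27 and 0.09, with a fit of -0.23 ± 0.08 (adjusted p = 0.11). In each comparison the pair of fasted mouse 15 was the highest, and without that mouse both passed, at -0.33 (adjusted p = 0.019) and -0.32 (adjusted p = 0.023). The correlation of its 2 spots over the 14 pairs was 0.02, so the 2 spots did not follow each other.

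Esr1, the oestrogen receptor that prevails in liver, had high-fat to control ratios of 0.27, 0.07, 0.20, 0.21 and 0.04, all above 0 and short of the threshold at 0.13 ± 0.07 (adjusted p = 0.91). Esr2, the second oestrogen receptor, had -0.22 ± 0.11 in fasted over control livers (adjusted p = 0.29). The oestrogen-related receptors Esrra and Esrrg, which serve mitochondrial genes, had 0.10 ± 0.16 and 0.10 ± 0.07.

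None of the 21 forkhead genes passed in any comparison (limma), where 5.54% of named genes fell and 4.15% rose in fasted against control livers. At an unadjusted p under 0.05, 1 was higher and 2 lower in fasted over control livers. That is 14.3%, against 21.3% of all named genes. Foxo1, which insulin holds inactive and which raises gluconeogenic genes in fasting, had 0.0018 ± 0.07 in fasted over control livers, with an interval of -0.16 to 0.16. Foxo3 had 0.10 ± 0.14 and Foxo4 0.18 ± 0.08, above 0 in 4 of 4 pairs (adjusted p = 0.25). The pioneer factors of the hepatocyte were Foxa1 at -0.10 ± 0.09, Foxa2 at -0.21 ± 0.09 (below 0 in 4 of 4 pairs, adjusted p = 0.20) and Foxa3 at -0.09 ± 0.14. Foxq1, a factor linked to liver glucose output in mice, had the lowest value, -0.49 ± 0.21 (adjusted p = 0.19), with an SD of 0.78 over the 4 pairs. Foxm1, which drives hepatocyte division, had -0.03 ± 0.11. The other 13 (Foxb2, Foxc1, Foxd1, Foxd2, Foxd3, Foxd4, Foxe3, Foxf1, Foxf2, Foxh1, Foxj2, Foxl1 and Foxn1), most of them factors of embryonic patterning, lay between -0.10 and 0.09 in this comparison.

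The measured stress factors of the CREB and ATF families, with Creb3l1 as the only Creb gene, showed no change past the threshold. Atf4, the effector of the amino acid and endoplasmic reticulum stress response, had fasted to high-fat ratios of 0.64 (11 over 9), 0.16 (12 over 6), 0.39 (13 over 8), -0.15 (14 over 7) and 0.32 (15 over 10). The ratio was above 0 in 4 of 5 pairs, and the fit gave 0.28 ± 0.10 (adjusted p = 0.16). Against controls it was 0.08 ± 0.11. The fasted to control values were 0.0036 for Atf3, the stress-induced repressor, -0.05 for Atf6b, a membrane-bound sensor of endoplasmic reticulum stress, and -0.01 for Creb3l1, a relative of it. Atf7ip, at 0.18 ± 0.15, belongs to the family by name only, since it encodes a protein that binds ATF7 and helps to silence chromatin.

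Of the 4 STAT factors measured, none passed. Stat6, which relays interleukin-4, had high-fat to control ratios of 0.10, -0.05, 0.42, 0.41 and 0.34, of which 4 of 5 were above 0, and a fit of 0.23 ± 0.08 (adjusted p = 0.55). Stat2, of the interferon response, had -0.18 ± 0.07 in fasted over high-fat livers (adjusted p = 0.19). Stat5a, which acts below growth hormone, had -0.08 ± 0.09 and Stat4, known from lymphocytes, -0.17 ± 0.10 in fasted over control livers.

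Gata4, the family member known from hepatocytes and liver endothelium, had fasted to control ratios of 0.08, 0.13, 0.23 and 0.12 and high-fat to control ratios of 0.09, 0.19, 0.10, 0.25 and 0.18. All 9 were above 0, with fits of 0.16 ± 0.06 and 0.15 ± 0.06 (limma, adjusted p = 0.12 and 0.67). Control mice 2, 3, 4 and 5 served in both comparisons, so the 9 pairs are not independent. The averages cover a difference between the 2 sets of arrays, whose cause was not tested. The fasted to control arrays hybridised first averaged -0.27 and those with exchanged dyes 0.55. Each set alone would have passed, in opposite directions. The fit gave -0.34 for the first (limma, adjusted p = 0.026) and 0.66 for the second (adjusted p = 0.0076). Gata1, the erythroid factor, behaved alike, with -0.38 and 0.49 for the 2 sets of arrays and ratios of 0.04, 0.15, -0.14 and 0.17 once they were averaged. The fasted to control values of the others were 0.02 for Gata2, -0.11 for Gata3 and 0.12 for Gata5, with SE of 0.07, 0.11 and 0.14.

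How closely the 2 spots of a gene followed each other differed between families. Over the 14 pairs the correlation had a median of 0.48 for the members and 0.50 for all named genes. It was 0.95 for the C/EBP factors, 0.76 for the Kruppel-like factors and 0.79 for the thyroid hormone and retinoic acid receptors. It was 0.15 for the GATA factors, 0.14 for the STAT factors, 0.32 for the forkhead genes and 0.02 for the steroid hormone and oestrogen-related receptors. The 2 spots share the labelled RNA, the array and the dye, so this describes the measurement only, and a value near 0 also occurs where a gene does not vary between mice.

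**Figure D5:**
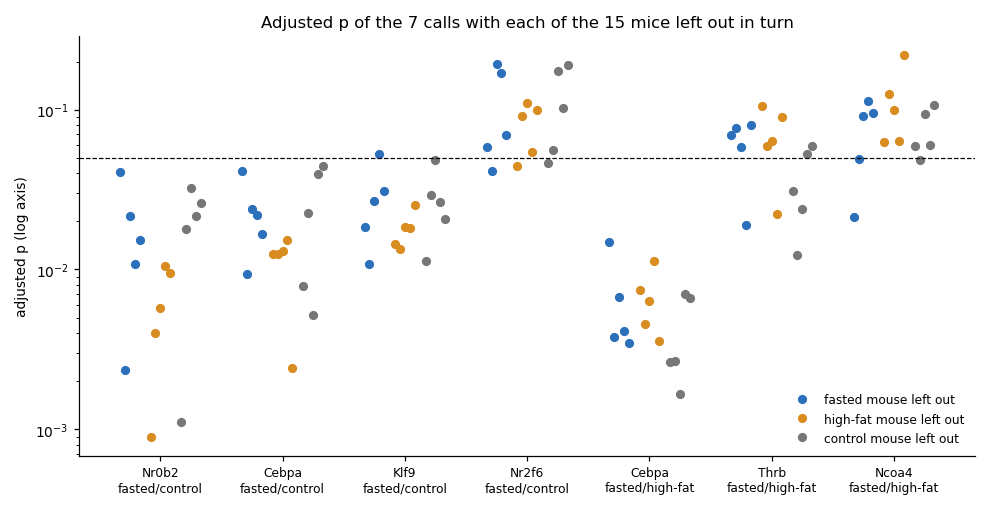
Adjusted p (log axis) of the 7 results that passed, with each of the 15 mice left out in turn, coloured by the group of the mouse left out: fasted (blue), high-fat (orange) and control (grey). The dashed line is the threshold of 0.05; Nr0b2 and both Cebpa results stayed under it in 15 of 15 fits, Klf9 in 14, Thrb in 5, and Nr2f6 and Ncoa4 in 3 each.

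Other regulators were read from lists of known genes. The background for their counts in fasted against control livers was 5.54% of named genes lower and 4.15% higher. At an unadjusted p under 0.05 (limma) it was 21.3%. Of 24 measured further liver transcription factors, of which Esrra is also a member, Mlxipl fell in fasted livers and no other passed. Mlxipl encodes ChREBP, the factor that couples glucose to lipogenesis, and its log2 ratio was -0.89 ± 0.10 against controls (adjusted p = 2.1e-05) and -0.86 against high-fat livers. Of 12 measured coregulators outside the rule, the histone deacetylase Hdac1 fell in fasted against control livers, at -0.38 ± 0.10 (adjusted p = 0.021). Of 12 clock genes none passed (limma, 1 at an unadjusted p under 0.05), with a median of -0.06.

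Known targets of several factors were read from lists in the same way, though not every such factor, SREBP among them, was itself a member. Among 7 measured targets of SREBP and LXR, 4 fell and none rose in fasted against control livers, with a list median of -0.38. Of all named genes 5.54% fell and 4.15% rose in this comparison, the background for the counts of this list and of the next ones. Scd1, which desaturates fatty acids, had -1.06 ± 0.23 (adjusted p = 0.0080), and Fdft1, of sterol synthesis, -0.53 ± 0.14 (adjusted p = 0.024). Sqle, Abcg1 and Abca1 did not pass, at -0.38 ± 0.13, 0.09 ± 0.07 and 0.06 ± 0.10 (limma, adjusted p = 0.091, 0.58 and 0.80). The list holds targets of both factors together, and they were not read apart.

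Among 12 measured targets of the glucocorticoid receptor, 2 rose and 1 fell, with a median of 0.28. Tdo2, which opens tryptophan breakdown, had 0.61 ± 0.14 and Fkbp5, a chaperone that limits the receptor, 0.50 ± 0.12 (adjusted p = 0.012 and 0.014). The target that fell was Klf9 itself, a member given above. Of 12 growth hormone and STAT5 targets, 4 fell and none rose, with a median of -0.42. Igfals, which keeps IGF1 in blood, had -0.75 ± 0.11 and Ghr, the growth hormone receptor, -0.75 ± 0.13 (adjusted p = 0.00036 and 0.00085). Cish, Socs2 and Igf1, also on the list, did not pass, at -0.95 ± 0.38, -0.45 ± 0.26 and 8.4e-05 ± 0.10. None of 8 ATF4 targets passed (limma, 3 at an unadjusted p under 0.05), and the hormone gene Fgf21 had 0.47 ± 0.15 (adjusted p = 0.073). The median of all named genes in this comparison was 0.006, and the lists were described by these counts and medians only.

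In bulk liver RNA, fewer cells of a type and less RNA per cell cannot be told apart. In fasted against control livers 5.54% of named genes fell and 4.15% rose. Of 6 measured Kupffer cell and macrophage markers, 4 fell in this comparison, with a median of -0.44 and Cd5l at -0.68 ± 0.13. Of 6 endothelial markers 2 fell, Kdr and Tek, at -0.30 ± 0.09 and -0.33 ± 0.10, with a median of -0.09. Of 4 erythroid markers 2 fell, Fech and Hba-a1, at -0.42 ± 0.10 and -0.65 ± 0.17. Among 4 hepatocyte markers, Apoa1 rose by 0.37 ± 0.09 and Ttr fell by 0.74 on the log2 scale. Of 2 stellate cell and fibroblast markers Dcn rose, at 0.29 ± 0.08. Of 6 neutrophil markers only Camp fell, at -2.14 ± 0.20, and the median of that list was -0.004. None of the measured cholangiocyte, lymphocyte, adipocyte and muscle markers passed (limma, 0 of 2, 5, 1 and 4). These marker genes moved in the same comparison as Cebpa, Klf9, Nr0b2 and Nr2f6, and their part in those results was not tested.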

How the data were processed

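Gene expression in mouse liver was measured on 28 two-colour arrays. The deposited log2 ratios, 1 per spot and array, were normalised by the authors, whose processing notes name limma without a version; the base of the logarithm is not stated and was taken as 2, and neither spot intensities nor detection calls were used here. The 16416 spots gave 4799 named genes and 6658 spots without a name, together 11457 features, after spots of a gene were averaged. No filter on low signal was possible, so the number of arrays limits the precision.

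Ratios were turned to the fasted or high-fat liver over its partner, fasted over high-fat in the third comparison, and the 2 arrays of a dye exchange were averaged into 1 value per mouse pair. A linear model over all 14 pairs (limma 3.58.1 in R 4.3.3) estimated the 3 comparisons together. Pairs that share a mouse were given a signed correlation, with 18.0% of the variance placed between mice (the mean over features after trimming 15% at each end). P-values were moderated and adjusted over all features by Benjamini-Hochberg, with a threshold of 0.05, and 95% intervals came from the same fit. The pair numbers in the labels do not mark mice shared across comparisons, so shared mice took the place of a replicate block. The fit was tested on simulated data.

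Members that passed were named, with at most 4 more per role group by smallest p, and pair values are given for those among the 8 smallest p of a comparison. The members, the other gene lists and these rules were chosen with earlier results of these data known. Some of the lists of target genes are not reported here. All 72 member names matched RefSeq by gene identifier; promoter stretches, found for 57 members, are from RefSeq tables of GRCm38.p6. Alternatives were array centring and scaling, single arrays, direct pairs alone, other shares of variance between mice, robust moderation, single spots, adjustment over named genes and leaving out each mouse. After the data were seen, the widest array or its pair was also left out, the closure of the ring of pairs was tested, and the direction of each array was checked against the other pairs.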

Additional observations from a re-analysis of the deposited data

Results flagged for a closer look

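Among the 45 sets of pair values examined (15 members, 3 comparisons), 1 value stood far from the rest of its set. Esr1 had a log2 ratio of 0.080 in fasted mouse 14 over high-fat mouse 7, while the other 4 fasted and high-fat pairs lay between -0.011 and 0.0073. The gap was 0.80 of the range of the 5 pairs. The SE of the fitted value was 0.07. Such a gap is found by chance in about 1 of 20 sets.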

How the results depend on the processing

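Of the 4 members lower in fasted than in control livers, Nr0b2 passed in 13 of 14 other settings, Cebpa in 11, Klf9 in 10 and Nr2f6 in 6. The count was 20 with only the first array of each pair (3 higher, 17 lower), where 1493 named genes passed, against 465 in the main fit. It was 1 with direct pairs alone (57 named genes) and 0 with 0.9 of the variance placed between mice (79 named genes). With the widest array left out it was 8 (615 named genes), and with a mouse left out 3 to 5 (254 to 526 named genes). With the first arrays alone 20 of the 72 fasted to control values had the other sign, as did 1656 of all 4799 named genes. With the second arrays alone it was 24 members and 1391 of all named genes. Among the 20 members with the first arrays, Nr2f6, which had passed, was at 0.0028. Gata1 at -0.41, Gata4 at -0.34 and Foxj2 at -0.40 passed with the turned sign. The cause was not tested. For high-fat against control livers the count was 0 in all settings except the first arrays alone, where it was 4. With those arrays 170 named genes passed, against 16 in the main fit. The count was 0 with each mouse left out. For fasted against high-fat livers 3 members and 306 named genes passed in the main fit. The 3 calls became 1 with the first arrays (474 named genes), 0 with the second arrays (78) and 0 with direct pairs alone (87). They became 5, 1 and 0 with 0, 0.5 and 0.9 of the variance between mice (370, 211 and 61 named genes). With a mouse left out the count ran between 1 and 5 (182 to 409 named genes). The cause of these shifts was not tested. Of 3915 refitted values for the 45 named members, 3807 kept their side of the threshold, 67 fell short of it and 38 newly passed. Another 3 (Gata1, Gata4 and Nr2f6) had the other sign and passed in either fit. Most of the 3915 belong to results that had not passed, and only those that had passed could fall short. Of 29 refits each, Ncoa4 fell short in 20, Nr2f6 in 19, Thrb in 16 and Klf9 in 5. The 2 Cebpa results fell short in 3 each and Nr0b2 in 1. Each value is itself a ratio within a pair of mice. Beyond that, with the replicate number as a block across comparisons, no paired analysis was possible because the pair numbers of the labels do not join the same mice across comparisons; mice shared between pairs entered the fit as a correlation instead. Ratios hold no signal over background, so weakly expressed members cannot be told from unchanged ones.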

Other observations

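Several members that did not pass in the main fit passed in a few of their 29 refits. In fasted over control livers these were 3 refits each for Foxq1 and Klf12, 2 each for Nr3c1 and Rxra and 1 for Esr2. In fasted over high-fat livers they were 2 for Nr0b2 and 1 for Rarg. Foxq1 passed with the first spot of each gene alone, at -0.67 (adjusted p = 0.048), and with the widest array left out, at -0.63 (adjusted p = 0.038). Klf12 passed with the pair of fasted mouse 15 and control mouse 2 left out, at -0.27 (adjusted p = 0.031), and Nr3c1 passed with the widest array of that pair left out, at -0.30 (adjusted p = 0.026). Esr2 passed without fasted mouse 14, at -0.36 (adjusted p = 0.037), and so did Rxra, at 0.28 (adjusted p = 0.048). In fasted over high-fat livers, Rarg passed without control mouse 2, at -0.34 (adjusted p = 0.035), and Nr0b2 without fasted mouse 12, at -0.70 (adjusted p = 0.041).

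By the 2 routes between the same fasted and control mice, Rarg had 0.15 directly and -0.31 through the high-fat mice, and Atf7ip 0.39 and -0.07, so for these members the routes differed in sign. Their gaps ranked 142 and 149 among the named genes.

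The members' promoters held GGGCGG more often than all promoters, in 37 of 57 genes or 64.9% against 32.7%, with a gene counted if any of its listed starts held it. AGGTCA was found for 10 of the 57, or 17.5%, against 14.0% of all promoters, and TTGCNNAA for 4, or 7.02%, against 9.56%. These shares were not tested, and base composition differs between the promoters.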
